A study of Canis lupus familiaris with 26 samples.

Results

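Normal mammary stroma is the connective tissue around the ducts and lobules of the gland, described here across genes from 12 of the 26 samples of an RNAseq series on canine simple mammary adenoma. These 12 were chosen by their labels, as the normal stroma samples of 12 dogs with an adenoma. The normal stroma sample of pair 14 was left out for its low depth, and the 13 samples of adenoma-associated stroma (AAS) were not compared. The tissue was formalin-fixed and paraffin-embedded (FFPE), and areas next to unaltered mammary glands were cut out by laser-capture microdissection (LCM) from the same slides as the tumour. All dogs were female patients of various breeds, between 6 and 13 years old, and no strain, genotype or treatment is given in the labels. The paraffin samples were between 4 and 29 months old. Each sample came from 1 dog and is named by its pair number (3 to 13 and 15). Because every dog carried an adenoma, the tissue is normal by its histology and not from a tumour-free animal.

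Stroma is built mainly by fibroblasts, which secrete fibrillar collagens, proteoglycans such as decorin and the glycoproteins of elastic and microfibrillar networks. It also holds vessels, fat cells and resident immune cells, most of all macrophages. In the mammary gland this matrix surrounds the epithelial ducts, and its proteases and growth factor binding proteins take part in the remodelling of the gland through reproductive cycles. A microdissected area holds all of these cells, so that in these bulk samples fewer cells of a type and less RNA per cell cannot be told apart.

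Estimated counts summed to 759119 in the shallowest of the 12 samples (pair 6), 969706.5 in the median and 1602797 in the deepest (pair 13). Between 5283 (pair 4) and 10823 (pair 11) genes reached at least 3 counts, the floor of detection, which corresponded to between 1.57 and 5.83 normalised CPM, which are counts scaled to a common effective library size. The scaling factor was 0.47 in pair 4 and 0.64 in pair 7, against 0.93 or more in the others. A low factor raises the CPM of a sample relative to its shares of counts, so that high CPM in pairs 4 and 7 depends in part on it. Samples correlated with each other at a mean Pearson r of 0.857 across the 3460 genes with a mean of at least 20 normalised counts, as a description across genes, which are not independent replicates. The samples of pairs 4, 6 and 15 stood apart, with a mean correlation of 0.814, 0.819 and 0.82 with the others against 0.852 or more in the remaining samples. The number of genes detected in all samples, the number of variable genes, the typical variation, the correlations within lists that moved most and the number of age slopes are therefore also given without these 3, while the gene pairs and clusters below were described with all samples. The paper lists an RNA quality value for each normal stroma sample. Matched by the ages of dog and sample, it was lowest in pairs 4 and 6 and highest in pair 15 among the 12. Its part in the results was not tested. A gene symbol could be assigned to 3302 of 18466 identifiers, and these genes held 10.5% (pair 4) to 29.5% (pair 15) of the counts. Counts per gene grow with transcript length, which was not used here, so that shares of counts are compared below and not numbers of molecules.

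The first question was which genes hold most of the counts. A very small number of genes did so. The 3 genes with the largest mean share held 41.7% ± 13.6 (SD, n = 12) of all counts, the first 10 held 49% ± 12.8, the first 100 held 60.3% ± 10.1 and the first 1000 held 83.6% ± 4.77. In the sample of pair 4, 50% of the counts fell on 2 genes, in the median sample on 21.5 and in the sample of pair 9 on 101. The first 2 genes have no symbol in the sources used here. ENSCAFG00000029384 held 8.68% of counts in pair 9 (95% Wilson interval 8.62 to 8.74), 14.9% in the median sample and 42.3% in pair 7 (42.2 to 42.4). ENSCAFG00000032276 held 10.4% in pair 11 (10.4 to 10.5), 13.4% in the median sample and 45.3% in pair 4 (45.2 to 45.4). These intervals cover counting error only, and the range between samples was many times wider. Of the 20 genes with the largest share, 12 lacked a symbol, and of the first 100, 65 did.

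**Figure D1:**
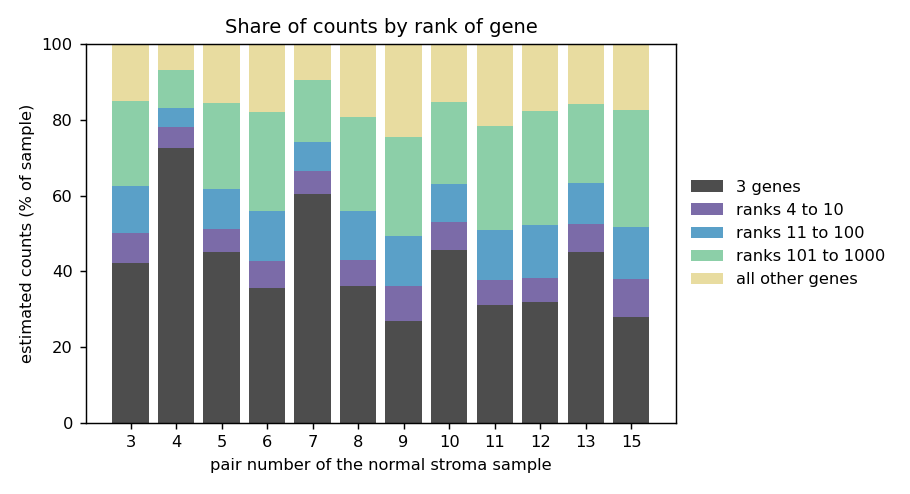
Share of the estimated counts of each normal stroma sample (vertical axis, %) held by genes ranked by their mean share over the 12 samples; each bar is 1 sample and the colours are bands of rank. The darkest band, the 3 most counted genes, reaches from 26.8% in pair 9 to 72.6% in pair 4.

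The 20 named genes with the largest share together held 6.15% of the counts. Among them were SLF1, BRSK1, LTA4H, STRAP, RNF175, COL1A1, AHNAK, TMEM196, VIM, ZNF582, H2AFV, PPARGC1A, SLC10A7, NMNAT1, COL3A1, NOA1, ZNF331, CCL16 and HTR2B. SLF1, a partner of the SMC5/6 complex in DNA repair, held 1.5% ± 0.666 (SD, n = 12) and had rank 5 among all genes. BRSK1, a kinase known from neurons, held 0.65% ± 0.555, and LTA4H, the hydrolase that makes leukotriene B4, held 0.572% ± 0.437. STRAP, an RNA-binding WD40 protein, held 0.532% ± 0.436.

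Stromal genes followed. COL1A1, the alpha-1 chain of collagen I, held 0.409% ± 0.476 of counts, AHNAK, a giant scaffold protein under the plasma membrane, 0.328% ± 0.158, VIM, the intermediate filament protein of mesenchymal cells, 0.188% ± 0.0804, and COL3A1, the chain of collagen III, 0.108% ± 0.114. Of the 20, 4 were thus members of the fibroblast list. Genes better known from other tissues stood at a similar share, among them CCL16, a chemokine known from liver, with 0.0943% ± 0.0242. PPARGC1A, a coactivator of mitochondrial biogenesis, held 0.111% ± 0.0595. HTR2B, a serotonin receptor, held 0.0914% ± 0.0351. How well reads were assigned to the named genes was not checked here, so that these shares alone do not show expression in stroma.

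The label has 4 markers, VIM, DCN, AHNAK and MMP2. All 4 were counted in every sample, from no fewer than 83 counts. Detection alone is no check of the label, since 2577 of the 3460 genes with a mean of at least 20 normalised counts were detected in all 12 samples. The epithelial gene CDH1 was also detected in all of them. On the scale of normalised CPM, VIM was 945 in the lowest sample (pair 4), 1677 in the median and 2822 in the highest (pair 3), with a mean of 1742 ± 563 (SD, n = 12). AHNAK was 1466 in pair 6, 3026 in the median sample and 5360 in pair 8, with a mean of 3090 ± 1151. DCN, the proteoglycan decorin that coats collagen fibrils, was 160 in pair 7, 554 in the median sample and 1214 in pair 11, with a mean of 595 ± 295. MMP2, the gelatinase A of connective tissue, was 136 in pair 7, 236 in the median sample and 575 in pair 11, with a mean of 277 ± 128.

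VIM thus covered a 2.99-fold range and AHNAK a 3.66-fold range, and DCN covered the widest range of the 4, at 7.57-fold. By mean normalised counts, not corrected for length, VIM ranked above 99.3% and AHNAK above 99.6% of the 3460 genes, DCN above 96.3% and MMP2 above 88.7%. Their SD of log2 CPM was 0.45 for VIM, 0.58 for AHNAK, 0.63 for MMP2 and 0.8 for DCN. The median SD was 0.8 over all 3460 genes and 0.567 over the 1840 with a mean of at least 50 normalised counts. Of the 4 markers, VIM alone lay below 0.567. Counting error alone would give between 0.03 and 0.09 for these 4 genes. DCN and MMP2 were lowest in the same sample (pair 7) and highest in the same sample (pair 11), with a Spearman rho of 0.66 over the 12 samples, and VIM and AHNAK had a rho of 0.6. VIM and DCN had a rho of 0.2. The sample of pair 7 was the oldest, at 29 months, and had 42.3% of its counts in the most counted gene. Neither gene passed in the test on sample age given below, and the part of the most counted gene in the low DCN and MMP2 values was not tested.

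**Figure D2:**
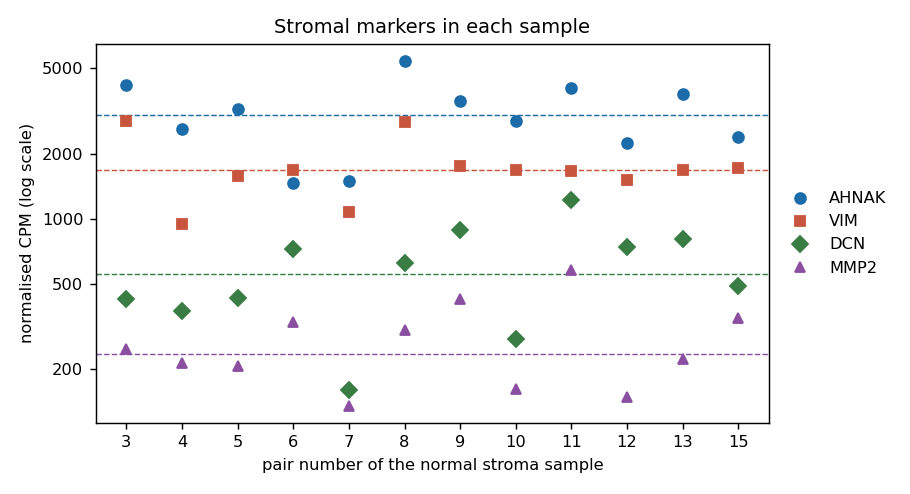
Normalised CPM (log scale) of AHNAK, VIM, DCN and MMP2 in each of the 12 normal stroma samples, named by pair number; dashed lines are the medians over the 12 samples. VIM lies between 945 and 2822 in all samples, and the DCN and MMP2 values of pair 7, at 160 and 136, lie lowest.

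The genes most like each marker were taken by Spearman rho of log2 CPM over the 12 samples, among genes with a symbol. They were picked as the highest of many and are a description without a test. Next to AHNAK stood INO80D, a subunit of a chromatin remodelling complex (rho 0.97), MAP1B, a microtubule-associated protein (0.92), TNXB, the matrix glycoprotein tenascin-X (0.92), PRR7 (0.92) and RNF170 (0.92). Next to VIM stood TMEM43 (0.81), HSPB1, a small heat shock protein (0.8), SIPA1L3 (0.8), SPTAN1, the non-erythroid alpha-spectrin (0.78), and ACTG2, the enteric smooth muscle actin (0.77). Next to DCN stood RPL12, a ribosomal protein (0.83), ELK4 (0.83), ASAP1 (0.82) and LAMA2, a laminin chain of basement membranes (0.82). Next to MMP2 stood SCAMP2 (0.91), RPL12 (0.88), USP28 (0.86), SIPA1L3 (0.84) and ATP2B4, a calcium pump of the plasma membrane (0.83). RPL12 and SIPA1L3 were each in the list of 2 markers. Over all 3460 genes the median rho with a marker was between -0.01 and 0.06.

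The second question was which genes are detected in every sample. At least 3 counts in all 12 samples were found for 2703 genes, 14.6% of the table, and these genes held 92.1% of the counts on average (86.5 to 97.3%). A symbol was known for 1101 of them. With at least 10 counts in all samples there were 1825 genes, and with at least 100 there were 440. At the other end, 1964 genes had no count in any of the 12 samples and 2492 reached 3 counts in a single sample only. The number detected in all samples rested most on pairs 15, 4 and 6. It was 2972, 2963 and 2891 without each of these in turn, against 2811 or fewer without any other single sample, and 3837 without all 3. With the counts outside the 3 most counted genes thinned to 302713 in every sample, the total in pair 4, 2367 genes were detected.

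Detection was complete for the fibroblast list. All 15 of its 15 members with a symbol (of 19 in the list) were detected in all 12 samples, and their summed level was 12894 ± 6301 CPM (SD, n = 12), between 4934 in pair 7 and 25654 in pair 8. Beside the markers, LRP1, an endocytic receptor for proteases, was 360 in pair 12, 549 in the median sample and 760 in pair 8. THY1, a surface glycoprotein of fibroblasts, was between 64.1 and 218, and PDGFRA, the alpha receptor for platelet-derived growth factor, between 23.3 and 136. Of the resting fibroblast list, whose genes are known from quiescent and adventitial fibroblasts, 5 of 9 members were detected in all samples. GSN, an actin-severing protein, had a mean of 189 ± 68.1 CPM, PI16 157 ± 109, C1QTNF4 137 ± 54.6 and CLEC3B, the protein tetranectin, 92.9 ± 45.6. The most variable of that list was MFAP5, a microfibril protein, at 0 in 2 samples and at 95.6 in pair 9. In this and the lists below, the most variable member was taken without a filter on level, and some of these genes have few counts.

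Collagens were among the most uneven of the abundant genes. COL1A1 was 439 CPM in pair 10, 2118 in the median sample and 12681 in pair 6, a 28.9-fold range. COL3A1 was 132 in pair 10, 767 in the median sample and 3290 in pair 6. COL1A2, the second chain of collagen I, was 154 in pair 7, 577 in the median sample and 1891 in pair 6. All 3 genes were highest in pair 6 and second highest in pair 8, and lowest in pairs 7 and 10. They ran together over the 12 samples, with a Spearman rho of 0.97 for COL1A1 with COL3A1 and of 0.93 for COL1A1 with COL1A2.

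Collagen VI, which forms beaded microfibrils around cells, was steadier. COL6A3 was 211 in pair 12, 307 in the median sample and 584 in pair 3, and COL6A1 was between 130 and 454, with an SD of log2 CPM of 0.57 and 0.54 against 1.47 for COL1A1. COL6A1 and COL6A3 had a rho of 0.31. Of the 13 fibrillar and associated collagens with a symbol (of 22 listed), 9 were detected in all samples. The most variable, with no filter on level, was COL27A1, which was at 0 in 2 samples. Their summed level was 6300 ± 5414 CPM and covered a 13.5-fold range, against 2.36-fold for the elastic fibre and microfibril genes and 1.97-fold for the matrix glycoproteins and large proteoglycans. COL6A1, LRP1, THY1, PDGFRA and the pairs of genes set side by side by rho were chosen after their values were seen.

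The other matrix lists were counted at lower levels. Of the small leucine-rich proteoglycans, DCN and PRELP were detected in all samples, PRELP at 188 ± 65.9 CPM. The other 7 members were not, among them ASPN at 31.9 ± 20.6, ECM2 at 27.8 ± 17.3 and OMD, the most variable, at 26.4 ± 25. Of the elastic fibre genes, 9 of 13 were detected in all samples, with FBLN1 (fibulin-1) at 416 ± 168, FBN1 (fibrillin-1) at 241 ± 116, MFAP4 at 180 ± 120 and LTBP4, a binding protein of latent TGF-beta, at 132 ± 54. Among the matrix glycoproteins TNXB led with 588 ± 260, followed by HMCN1 (hemicentin-1) at 287 ± 65.5, AEBP1 at 186 ± 86.9 and SVEP1 at 175 ± 58. HMCN1 was the steadiest of these, between 190 and 388. POSTN, the matricellular protein periostin, was the most variable of that list, at 0 in pair 4, 15.2 in the median sample and 163 in pair 12.

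Among matrix proteases and inhibitors, TIMP3, an inhibitor bound to the matrix, was 316 in pair 6, 574 in the median sample and 831 in pair 9. MMP2 was next, followed by TIMP2 at 90 ± 29.5 and SERPINF1 at 88.3 ± 48.8, and PCOLCE, an enhancer of procollagen processing, was the most variable. Of the basement membrane genes, 6 of 9 were detected in all samples, led by LAMA4 at 176 ± 67.6, NID1 at 56.9 ± 36.9, LAMA1 at 35.9 ± 17.8 and LAMA2 at 32.7 ± 14.2, and COL4A1 was the most variable, at 0 in pair 6 and 144 in pair 10. Among adhesion receptors ITGB1, the common beta-1 integrin, was steady between 115 and 233, with DDR2, a collagen receptor, at 119 ± 51.7, ITGAV at 110 ± 37.9 and ITGA5 at 104 ± 42.4. ITGA2, a collagen-binding integrin chain, was the most variable of these and was at 0 in 2 samples.

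The cytoskeletal list was detected nearly throughout, with 14 of 17 members in all samples. After AHNAK and VIM came MACF1, which links microtubules to actin, at 687 ± 629, and SPTBN1, the beta-spectrin, at 475 ± 164. MACF1 was 332 in pair 11, 485 in the median sample and 2562 in pair 4. PLEC, the linker plectin, was among the steadiest of all named genes. TNS3 was the most variable of the list, at 0 in 3 samples.

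Markers of other cells that a microdissected area could hold were counted next. Of the macrophage and dendritic cell list, 6 of 7 members with a symbol were detected in all samples, and the sum was 1091 ± 284 CPM (515 in pair 4 to 1517 in pair 8). AIF1 was 359 ± 145, CD209, a lectin of dermal and connective tissue macrophages and dendritic cells, 316 ± 221, MRC1, the mannose receptor, 181 ± 59.9, and ITGAM 143 ± 46. LYZ was the most variable, at 0 in 3 samples. Smooth muscle and pericyte genes summed to 379 ± 96.4, with CALD1 at 196 ± 52.1, MYLK at 49.3 ± 29.8, ACTA2, the smooth muscle actin, at 47.8 ± 33.9, and SYNPO2 at 32.4 ± 17.2. ACTA2 was 3.84 in pair 15, 37.7 in the median sample and 110 in pair 9. TPM2 was the most variable of the list, at 0 in 3 samples.

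Endothelial genes were low. Of 5 members with a symbol, KDR, the main receptor for vascular endothelial growth factor, was detected in all samples, between 5.76 and 81.6, and MMRN1, FLT4 and PROX1, 3 genes known from lymphatic endothelium, had means of 21.5, 18.2 and 17.7. MMRN1 was also the most variable. Of 5 adipocyte genes, DGAT2, an enzyme of triglyceride synthesis, was detected in all samples at 49.3 ± 35.1, and GPAM and PNPLA2 had means of 21.3 and 17.6. SCD, the desaturase of fatty acid synthesis, was 0 in pair 4, 56 in the median sample and 497 in pair 6. LEP, the adipocyte hormone leptin, chosen after its values were seen, was at 0 in 10 of 12 samples.

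Of 7 luminal epithelial genes with a symbol, CDH1, EPCAM and GATA3 were detected in all samples. CDH1, the epithelial cadherin, was 56.6 in pair 5, 105 in the median sample and 167 in pair 12, and EPCAM was 12.8 in pair 6, 28.7 in the median sample and 155 in pair 4. GATA3, a factor of luminal cells that other cells also use, was 23.1 ± 13.5, and KRT19, the most variable of the list, had a mean of 6.69 and was at 0 in 3 samples. The 7 luminal genes summed to 188 ± 58.3 CPM, between 101 and 255, and their part in the levels of other genes was not tested. Of basal genes, COL17A1, a hemidesmosomal collagen, was between 3.84 in pair 15 and 101 in pair 9, and KRT15, the most variable, was at 0 in 5 samples. Among epidermal genes PPL (periplakin) had a mean of 90 ± 51.9, DMKN 20.4 ± 14.9 and CDSN 13.9 ± 18.2, and SPINK5, the most variable, was at 0 in 3 samples and at 119 in pair 9. CDSN and SPINK5 were both highest in pair 9, where the epidermal sum was 358 against a median of 139.

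Of nerve and Schwann cell genes, PMP22 had a mean of 22.3 ± 15, ERBB3 16.5 ± 14.1 and SOX10 8.93 ± 7.89. KIT, the only mast cell gene with a symbol, had a mean of 5.61 ± 4.78. In the list of T and NK cells IL16 was between 9.48 and 85.5, and ZAP70, the most variable, was at 0 in 11 of 12 samples. No member of the skeletal muscle and erythrocyte lists had a symbol, so that these were not analysed here.

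B and plasma cell genes were irregular. IRF4 was steady, between 71.9 and 209, and PAX5, a B cell transcription factor, was 63.6 in the median sample and 332 in pair 4. TNFRSF17, a receptor of plasma cells, was 4.2 in pair 11, 87.9 in the median sample and 315 in pair 5. IGHM, the heavy chain of immunoglobulin M and the most variable of the list, was 0 in 2 samples, 23.2 in the median and 319 in pair 11. IGHM was thus highest in the sample in which TNFRSF17 was lowest. The median rho over the 6 pairs of this list was 0.03.

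Signalling genes were mostly low. Of 12 hormone receptor and IGF genes, NR3C1, the glucocorticoid receptor, was 51.8 in pair 15, 132 in the median sample and 170 in pair 6. IGFBP5 was 121 ± 62.6, IGFBP7 35.7 ± 34.4, and THRA, the thyroid hormone receptor alpha and the most variable of them, 24.6 ± 20.7. ESR1, the estrogen receptor alpha, was detected in all samples, between 7.67 and 40.4, and PGR, the progesterone receptor, was at 0 in 11 of 12; both were chosen after their values were seen. Among Wnt and Hedgehog genes SCUBE2, a secreted factor of Hedgehog release, was between 44.1 and 111, with GLI3 at 38.1 ± 18.1, TCF4 at 13.8 ± 7.36 and PTCH1 at 12.9 ± 9.4, while GLI1 was the most variable. Of the TGF-beta family, TGFBR3 (betaglycan) was 105 ± 42.8, SKI 30.1 ± 15.6, SMAD2 25.1 ± 28.8 and the most variable, and INHBA 15.5 ± 15.6. Of the cell cycle genes MCM7 was 36.9 ± 19.5 and KIF20A 29.6 ± 22.4, while MKI67, the proliferation marker and the most variable, was 10.7 ± 10.8 and MCM3 2.43 ± 2.61.

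**Figure D3:**
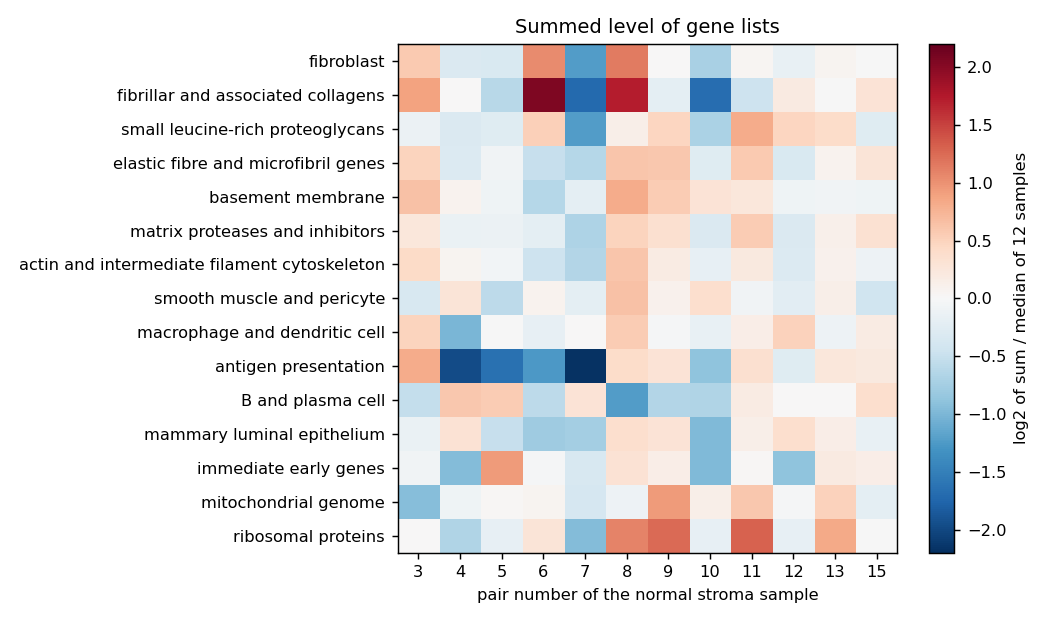
Summed normalised CPM of 15 gene lists (rows) in each of the 12 normal stroma samples (columns, by pair number), as the log2 of the sum over its median of the 12 samples; red is above and blue below the median. The values run from -2.18 for antigen presentation in pair 7 to 2.05 for the collagens in pair 6.

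The third question was which genes vary most between samples. Between samples, the variation of a typical gene beyond what counting error adds was 41.8% of its mean, and 38.5% without pairs 4, 6 and 15. This is the biological coefficient of variation, from the common dispersion of edgeR over 1995 genes. With 1 library per dog, differences between dogs and those of dissection, fixation and library preparation cannot be told apart in it. Over the 3460 genes with a mean of at least 20 normalised counts, the SD of log2 CPM had a median of 0.8, with a 10th percentile of 0.378 and a 90th of 1.49. Counting error alone would give a median of 0.2. An SD above 1 was found for 1178 genes (34%), of which 509 had a symbol, and for 985 of them it stayed above 1 without their highest sample. Without pairs 4, 6 and 15 the number was 705 of 3700. With the counts outside the 3 most counted genes thinned to the total in pair 4, it was 308 of 2125. There the filter of 20 was applied to the thinned counts and asked for a higher level, so that depth and filter cannot be told apart. With all counts kept and a mean of at least 50 normalised counts required, the number was 237 of 1840. Most of the 1178 genes were thus of low level.

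**Figure D4:**
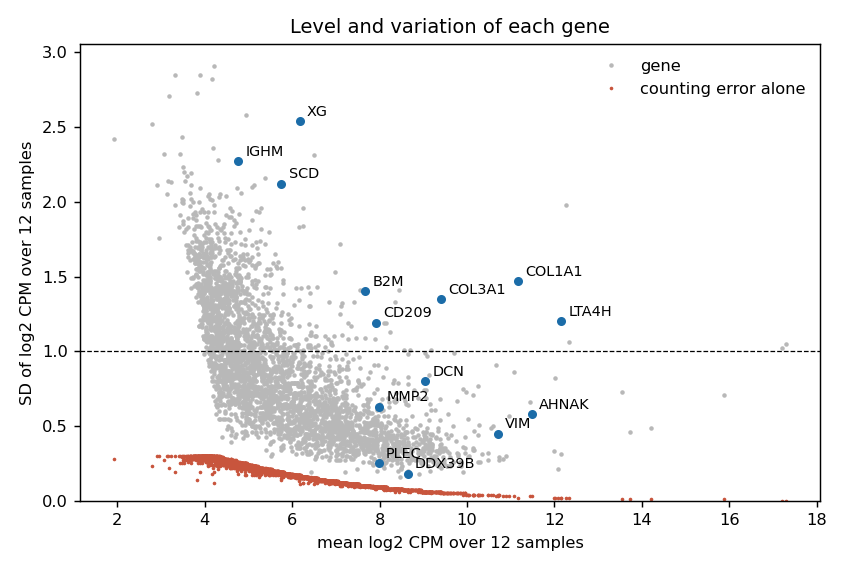
Each grey point is 1 of the 3460 genes, with its mean log2 CPM (horizontal) and its SD of log2 CPM (vertical) over the 12 normal stroma samples; red points are the SD that counting error alone would give, and the dashed line is an SD of 1. XG lies at 2.54 and DDX39B at 0.18, and COL1A1, at 1.47, stands out from genes of a similar level.

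The 15 named genes with the largest SD were XG, CES1, IGHM, PERM1, RAB11A, SCD, DLA-DRA, DNAJA1, MBOAT7, SLC25A21, ALDH5A1, THRA, TRPC1, ARHGEF5 and PSRC1, with SDs of log2 CPM from 2.54 down to 1.98. For SCD the SD was 1.36 without pairs 4, 6 and 15. Apart from XG, each was at 0 in at least 1 sample. XG, a blood group antigen of the cell surface, was counted once in pair 15 (0.959 CPM), and was 143 in the median sample and 623 in pair 8. CES1, a carboxylesterase, was at 0 in 3 samples, 25.4 in the median and 101 in pair 11. DLA-DRA, the alpha chain of a major histocompatibility complex (MHC) class II molecule, was at 0 in pair 4, 40.7 in the median sample and 205 in pair 3.

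DNAJA1, a co-chaperone of HSP70, was at 0 in 4 samples and at 55.2 in pair 12, and RAB11A, a GTPase of recycling endosomes, was at 0 in 4 samples and at 56.2 in pair 8. PERM1, a regulator of muscle mitochondria, was at 0 in 4 samples and at 124 in pair 9. The highest values of the 15 genes fell in 9 different samples. The samples of pairs 15, 4 and 6 were at 0 for 251, 174 and 164 of the 1178 variable genes, against 68 or fewer in the others, and those of pairs 4 and 15 also had the fewest genes with at least 3 counts (5283 and 5417). The part of depth in these values was not tested.

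The 10 steadiest named genes were DDX39B, EIF3H, SAFB, TLR7, TTC38, ZNF331, POT1, TNRC6B, PLEC and TTC29, with SDs from 0.18 to 0.25. DDX39B, an RNA helicase of mRNA export, was 327 in pair 7, 394 in the median sample and 529 in pair 11, with an SD of 0.18 against 0.07 from counting alone. EIF3H, a translation initiation factor, was between 117 and 180, and SAFB, a nuclear matrix protein, between 58.3 and 97.9. For SAFB the SD of 0.19 was close to the 0.16 that counting alone would give. TLR7, a sensor of single-stranded RNA, was between 567 and 933, and PLEC between 178 and 355.

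The fourth question was which genes vary together. Across all pairs of the 3460 genes the median Spearman rho over the 12 samples was 0.014, and the 10th and 90th percentiles were -0.42 and 0.455. All pairs share the same 12 libraries and their scaling, so that these are descriptions without a test. Of 19 lists with at least 4 members at this level, all 19 had a median rho above that of all pairs. With Pearson's r 17 did, and between 16 and 19 when 1 sample was left out. Some lists share genes, among them COL1A1, VIM and MMP2, so that the 19 are not separate observations. Some medians lay close to that of all pairs, with adhesion receptors and B and plasma cell genes at 0.03. The highest was in the antigen presentation list at 0.61, over 6 pairs of 4 genes. The ribosomal proteins followed at 0.43, smooth muscle and pericyte genes at 0.38 and the hormone receptor and IGF genes at 0.37. The mitochondrial genome was at 0.36 and the fibroblast list at 0.35. In the fibroblast list 91 of 105 pairs were above 0, against 51.5% of all gene pairs. Without pairs 4, 6 and 15 the fibroblast list was at 0.5 and antigen presentation at 0.77, while macrophage and dendritic cell genes went from 0.22 to 0.03 and smooth muscle and pericyte genes from 0.38 to 0.24. A single sample moved some of these values, since the ribosomal proteins were at 0.24 without pair 9, the mitochondrial genome at 0.19 without pair 3, smooth muscle and pericyte genes at 0.24 without pair 8, and macrophage and dendritic cell genes at 0.1 without pair 8, pair 10 or pair 11 and at 0.11 without pair 4.

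Antigen presentation genes load peptides onto MHC molecules for T cells. B2M, the light chain of MHC class I, was 32.7 in pair 7, 303 in the median sample and 566 in pair 15. CD74, the invariant chain of class II, was 4.8 in pair 15, 23 in the median sample and 101 in pair 3, and DLA-DQA1 was 21.9 ± 15.4. DLA-DRA was the most variable of the list. DLA-DRA had a rho of 0.66 with CD74, of 0.63 with DLA-DQA1 and of 0.65 with B2M. DLA genes have near-identical relatives, so that the split of counts between them is uncertain.

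The ribosomal protein list had 25 genes by its symbols, including RPS19BP1, which is a partner of a ribosomal protein and not one itself. In it RPS15A was 38.9 in pair 4, 194 in the median sample and 589 in pair 11. RPL12 was 32.7 in pair 7, 84.5 in the median sample and 440 in pair 9, and RPL28 was 27.8 in pair 7 and 232 in pair 11. RPS15A and RPL12 had a rho of 0.78. RPL14 was the most variable and was at 0 in 8 samples. Processed copies of ribosomal protein genes could take part of these counts, which makes their levels uncertain. The list's sum was lowest in pair 7 (428) and highest in pair 11 (2049), the same samples as for DCN and MMP2.

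Genes of the mitochondrial genome summed to 1789 ± 611, led by MT-CO1 at 519 ± 273, MT-ND1 at 364 ± 229, MT-CYB at 332 ± 89.6 and MT-ATP6 at 326 ± 152. MT-ND3 was the most variable and the lowest. MT-CO1 was 209 in pair 3 and 1166 in pair 11. Immediate early genes, which are switched on rapidly by many stimuli, were led by FOS at 445 ± 238, EGR1 at 356 ± 151, FOSB at 144 ± 124 and ZFP36 at 77 ± 57.9. FOS, EGR1 and FOSB were all highest in pair 5, at 891, 685 and 516, and KLF10 was the most variable of the list. FOS had a rho of 0.33 with EGR1 and of 0.34 with FOSB. Among heat shock proteins HSPB1 was 11.4 in pair 7, 65 in the median sample and 209 in pair 8, with CRYAB at 45.7 ± 17.7 and HSP90B1 at 42.5 ± 21.5.

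The 1178 variable genes were divided into 6 clusters by average linkage on 1 minus rho. The first held 598 genes, with a median rho of 0.28 between its members, and was highest in pair 9 (mean z-score 0.6) and lowest in pair 15 (-1.37). The genes closest to its mean were DBN1, an actin-binding protein, SLC38A4, an amino acid transporter, HS1BP3, IDS, a lysosomal sulfatase, SYNE1, a nuclear envelope linker, and PER2, a clock gene. IDS was 5.76 in pair 15, 166 in the median sample and 383 in pair 11. The fourth, with 239 genes, was highest in pair 15 (0.79) and lowest in pair 4 (-1.12), with EPHX1, TCF12, MAN1A1, CLU, PDP1 and P4HA1, a subunit of the collagen prolyl hydroxylase, closest to its mean.

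The second, with 145 genes, was highest in pair 15 (0.96) and pair 4 (0.77), with DELE1, GFM1, LTA4H, SLC20A1, SAMSN1 and ATP8B1 closest to its mean. LTA4H was 1669 in pair 13, 3845 in the median sample and 28607 in pair 4. By share of counts it was highest in pair 15, at 1.5%, and was 1.33% in pair 4. The third, with 41 genes, was highest in pair 6 (1.04) and lowest in pair 4 (-1.15), with SCD, CDH17, SYK, NUCB1, OLFML3 and PGRMC1. The fifth, with 61 genes, was highest in pair 12 (0.8) and lowest in pair 15 (-1.29), with PCSK2, PRRX2, MDH1, PPFIA1, S100PBP and SPAG17. The sixth, with 94 genes, was highest in pair 4 (1.05) and lowest in pair 15 (-1.37), with AKNAD1, CASP2, FHL1, DICER1, CHID1 and TBC1D9B. Each cluster had its lowest mean in pair 15, pair 4 or pair 3.

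The last question was whether levels followed the 2 graded properties in the labels, the age of the paraffin sample and the age of the dog. A slope on sample age was found for 2 of 1780 genes (0.112% called; edgeR's quasi-likelihood test, adjusted p below 0.05), and both fell. B2M fell by 0.157 per month of sample age on the log2 scale (SE 0.0249, n = 12; edgeR, adjusted p = 0.00778). CD209 fell by 0.134 per month (SE 0.0215, n = 12; edgeR, adjusted p = 0.00778). CD209 was 47.4 CPM in pair 7, 233 in the median sample and 659 in pair 8, and B2M and CD209 had a rho of 0.86 with each other. In the 4 samples of 20 months or more, B2M was between 32.7 and 116 and CD209 between 47.4 and 167. The younger samples had 159 or more of B2M and 164 or more of CD209, so that the 2 groups were apart for B2M and overlapped for CD209. These are the values on which both genes were called, so that the comparison describes them and gives no separate support. Without pair 7, the oldest sample, neither gene passed (edgeR, adjusted p = 0.142 for both), with slopes of -0.142 and -0.121. The number of genes called was then 0, and it was 4 without pair 5 and 10 without pair 15.

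**Figure D5:**
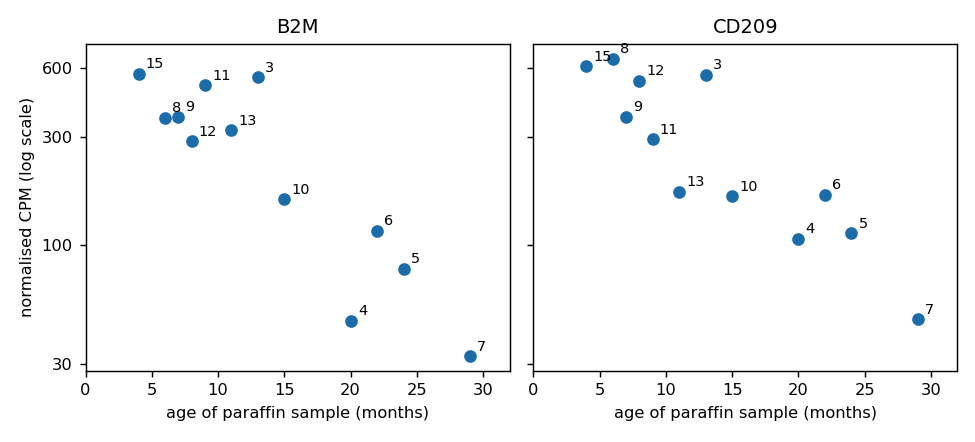
Normalised CPM (log scale) of B2M (left) and CD209 (right) against the age of the paraffin sample in months; each point is 1 normal stroma sample, labelled by its pair number. The lowest point in both panels is pair 7 at 29 months, with 32.7 for B2M and 47.4 for CD209.

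Of the 4 markers, none passed for sample age, with slopes of -0.03 (SE 0.02) for VIM, -0.06 (0.02) for DCN, -0.05 (0.02) for AHNAK and -0.05 (0.02) for MMP2 on the log2 scale per month (edgeR, adjusted p from 0.382 to 0.501). Among the lists, 0 of 14 fibroblast genes, 0 of 6 collagens, 0 of 12 cytoskeletal genes, 0 of 10 matrix glycoproteins and 0 of 5 ribosomal proteins passed. B2M was the single antigen presentation gene tested, and CD209 was 1 of 4 macrophage and dendritic cell genes. A slope on the age of the dog was found for 0 of 1780 genes (0% called; edgeR, smallest adjusted p = 0.404), with 103 genes at an unadjusted p below 0.05, and DESeq2 called 2. Sample age had 179 genes at an unadjusted p below 0.05, 10.1% of those tested.

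The first 3 principal components held 22.5, 15.6 and 14.3% of the variance. On the first, the samples of pairs 15, 4 and 7 lay at one end and those of pairs 9, 11 and 8 at the other. Of 12 relations of these components with total count, share of the most counted gene, sample age and dog age, none passed after adjustment with variance-stabilized counts, the scale used for the components. The smallest p was for the second component and the share of the most counted gene, with a rho of 0.71 (permutation p = 0.0123, adjusted p = 0.147) and an r of 0.34 (permutation p = 0.214, adjusted p = 0.461), which was 0.36 without the 2 samples farthest from the median share. For the third component and sample age, r was 0.47 (permutation p = 0.108, adjusted p = 0.461) and rho 0.53 (permutation p = 0.0793, adjusted p = 0.476), and r was 0.79 without the 2 samples farthest from the median age. On this component pair 6 (22 months) lay at 26.68 and pair 15 (4 months) at -14.02, and the others between -4.69 and 3.75. Pairs 6 and 15 both stayed in the r of 0.79. One relation passed by rank with log2 CPM as the scale. There the second component and sample age had a rho of 0.8 (permutation p = 0.00271, adjusted p = 0.0325), against 0.39 (permutation p = 0.209, adjusted p = 0.501) with variance-stabilized counts. Its r was 0.56 (permutation p = 0.0503, adjusted p = 0.548), and 0.8 without the 2 samples farthest from the median age. Pair 4 (20 months) lay at 58.24 and pair 15 at -44.32 on that component, against -9.62 to 15.45 in the others, and both stayed in the r of 0.8.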

How the data were processed

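RNAseq of LCM-isolated canine normal mammary stroma from FFPE tissue was used. The authors ran kallisto 0.44.0 on Ensembl's CanFam3.1 transcripts, collapsed transcripts to genes with tximport and deposited estimated counts per gene, which are whole numbers and not normalized. The kit works from total RNA at very low input, and counts without molecular identifiers are not independent molecules, so that intervals and floors cover counting error only. Total counts were 759119 to 1602797 in the 12 samples.

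Counts were scaled by TMM over all genes, and CPM refers to the scaled library size. Log2 CPM carried a prior count of 2. Slopes were tested in edgeR 4.0.16 (R 4.3.3) by quasi-likelihood on genes kept by filterByExpr, with Benjamini-Hochberg adjustment. DESeq2 1.42.0 gave the variance-stabilizing transformation of the principal components and an alternative test. Permutation tests (two-sided, 100000 resamples) used scipy 1.17.1 under Python 3.11.15. Scripts were tested on simulated data. Each sample is 1 library from a different dog, so that p-values measure the spread between dogs together with that of sample preparation.

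Symbols came from the readable parts of the supplementary tables, of which the first is sorted by the comparison with AAS. They thus cover such genes more often, and unnamed genes are given by identifier only. Gene positions and transcript lengths were not used here. The 32 gene lists, the rule for named genes and the members were chosen with earlier results of these data known. Named are the 20 symbols of largest share and 2 identifiers ranking above them, the 4 markers and the 5 nearest genes of each, the 15 most and 10 least variable genes, genes called in a slope, the 4 highest and the most variable members of each list, and the 6 genes nearest each cluster mean. Others are stated as chosen after their values were seen. A few genes that this rule names are not reported here. Alternatives changed the test, scaling, filters, prior count, detection floor, depth and samples.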

Additional observations from a re-analysis of the deposited data

Results flagged for a closer look

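The normal stroma sample of pair 14, left out of the results for its 83727 counts, still held all 4 stromal markers above its floor of 19 normalised CPM (3 counts), which is why they are listed here. Scaled together with the other 12, it had 1458 CPM of VIM (230 counts), 425 of DCN (67 counts), 2219 of AHNAK (350 counts) and 418 of MMP2 (66 counts). Each lies within the range of the other 12 samples on that scale, which was 1003 to 2950 for VIM, 169 to 1267 for DCN, 1582 to 5625 for AHNAK and 143 to 600 for MMP2. In that sample 3647 genes reached 3 counts, against 5283 to 10823 in the others.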

How the results depend on the processing

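The number of genes with a slope on sample age was 2 in the reported test, 24 with DESeq2, 275 without a filter on low counts and 12 without pairs 4, 6 and 15, and between 0 (without pair 7) and 10 (without pair 15) when 1 sample was left out. For dog age it was 0, 2 with DESeq2 and 227 without a filter. B2M and CD209 fell under all alternatives run and passed in all but the one without pair 7. The number of genes with an SD above 1 was 1178, and 4754 at a mean of at least 5 normalised counts, 237 at a mean of at least 50, 705 without pairs 4, 6 and 15 and 308 after thinning the counts outside the 3 most counted genes. RLE scaling, prior counts of 0.5 and 5, pair 14 added and leaving out the most counted gene gave 809 to 1339. The fits without pairs 4, 6 and 15 and the thinned counts were chosen after seeing the data. The causes were not tested, except that a lower or higher filter tests more or fewer genes. After thinning, the same filter on counts also asked for a higher level. The share of the top 10 genes, the number of genes detected in all samples, the coefficient of variation and the number of lists above the median of all pairs stayed within 1.5 times or 1 SD of the reported value in all alternatives run. The median correlation of single lists moved more, and that of smooth muscle and pericyte genes went from 0.38 to 0.19 with Pearson's r. With log2 CPM the second component and sample age passed by rho (0.8, permutation test, adjusted p = 0.0325) and not by r (adjusted p = 0.548). No paired analysis was possible because a single tissue is described, with 1 sample per dog. Depth limits genes of few counts most, since 3 counts correspond to up to 5.83 CPM.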
